A study of Homo sapiens with 19 samples.

Results

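The 1533 DNA elements described here are those whose names occur in both the promoter table and the enhancer table of the first set of QUASARR-seq libraries, out of 3422 element names in the whole series. They were chosen by their presence in the tables and not by their activity. The authors had tested 1525 of them in both tables, and the comparison runs over these 1525. The other 8 were left out of it. The 1525 elements carry 715 locus names, with 766 elements cloned in the orientation named fwd and 759 in the orientation named rev. A base substitution stands in the name of 208 elements at 42 loci, and 1317 elements carry none.

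The study tested plasmid libraries in K-562, a human erythroleukaemia cell line that grows in suspension. Each plasmid of this set (pDEST-QUASARR-luc-gfp) held an element of the collection named CNPL-TRE202-MRE, the minimal promoter pMYC and a pair of barcodes, and was delivered by electroporation with harvest 6 h later. The barcode paBC reports the promoter activity of the element and the barcode eaBC its enhancer activity, and each was counted in 2 RNA and 2 DNA libraries, so that the comparison rests on 8 libraries and 2 replicates per read-out. No sample was untreated, and the DNA libraries give the plasmid input of every element. All groups share the cell line, the vector, the minimal promoter and the harvest time, and the elements stand on a transfected plasmid outside their chromosomal place. The labels give 5 electroporations per technical replicate and 2 technical replicates per biological replicate. Whether replicates 1 and 2 came from separate cultures or were technical is not given in the labels, and the p-values measure only the spread between these libraries.

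A promoter is the stretch of DNA where RNA polymerase II is assembled and starts transcription in a set direction. An enhancer raises transcription from a promoter elsewhere, and in its classical definition it does so in either orientation. Many regulatory elements do both when tested on plasmids, and a barcode for each activity on the same molecule allows both to be read in the same cells.

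For each element and replicate, activity was log2 of RNA over DNA after 0.5 reads were added to each. The authors normalised both tables separately, so levels of promoter and enhancer activity were compared only by rank. In each library pair an element received a percentile rank from 0 to 100 among the 1525 elements. The lean of an element is its mean promoter rank minus its mean enhancer rank, in percentile points, so a positive lean means that the element stands higher among promoters than among enhancers. A rank is relative, and an element also moves when others pass it.

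The promoter libraries were deeper. Their totals were 6617407 and 6916053 reads for RNA and 10701434 to 10880944 reads for DNA, against 1260027 and 1475068 RNA reads and 3032786 to 3052549 DNA reads in the enhancer libraries. The reads carry no molecular identifiers in the tables, so repeated copies of a molecule cannot be separated. Ranks of the replicates correlated with Spearman's rho = 0.982 in the promoter read-out and 0.928 in the enhancer read-out, and the median element moved by 1.57 and 2.82 percentile points between replicates.

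Elements that were strong promoters were mostly strong enhancers too. Across the 1525 elements, mean log2 RNA/DNA correlated between the read-outs with Pearson's r = 0.855 and Spearman's rho = 0.890; the points share the cells, the plasmids and, through substituted and reversed versions, their loci, and they are not independent. Promoter values ran from -1.68 to 7.05 with an SD of 1.49 over elements, and enhancer values from -1.17 to 5.23 with an SD of 0.97. Of the 152 elements in the top decile of each read-out, 80 (52.6%) were shared, and of the 152 in the bottom decile, 61 (40.1%). The median size of the lean was 8.52 percentile points, larger than the replicate changes above, and 1230 elements (80.7%) leaned the same way in both replicates.

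A lean was called for 668 of the 1525 elements (43.8%) at a limma adjusted p under 0.05. Of these, 351 (23%) leaned to promoter activity and 317 (20.8%) to enhancer activity, and the median size of a called lean was 11.9 points. These calls depend on how the spread between libraries is estimated and on both promoter replicates, whereas they were not all lost without an enhancer replicate. With the replicate number as a block, no element was called at that limit (smallest limma adjusted p = 0.0574, with 732 elements at an unadjusted p under 0.05 against 800 without the block). Without paBC replicate 1 or without paBC replicate 2 no element was called either, with 552 and 508 elements at an unadjusted p under 0.05. Log2 values or ranks are therefore given below by replicate for many named elements, while a lean is the mean over both replicates. The counts of calls are those of the fit with all 8 libraries and no block. They do not hold with the block or without a promoter replicate.

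**Figure D1:**
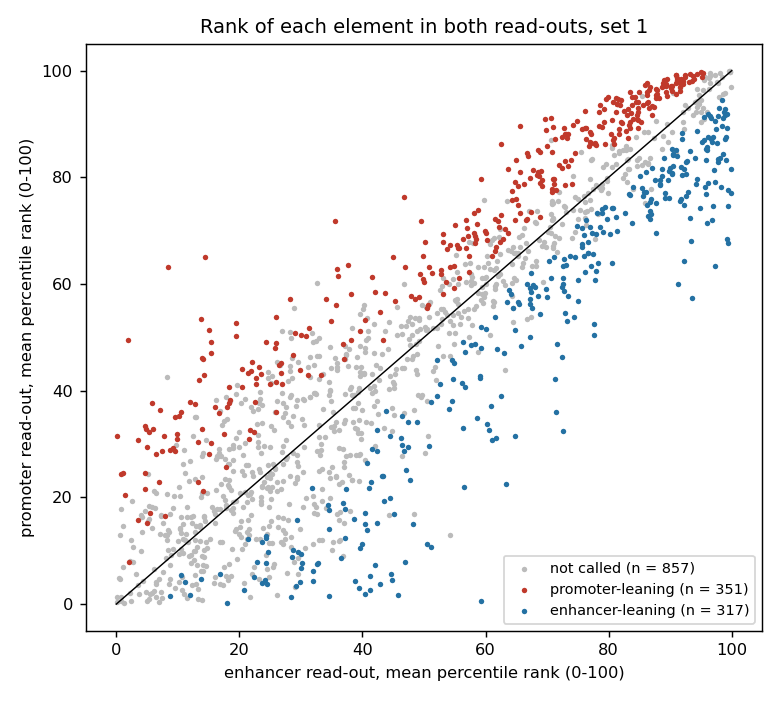
Mean percentile rank of each of the 1525 elements in the enhancer read-out (horizontal axis) and the promoter read-out (vertical axis), each over 2 replicates; the line marks equal rank. The 351 promoter-leaning elements lie above the line and the 317 enhancer-leaning elements below it, with called elements along the whole range of ranks.

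Elements with the strongest promoter lean stood near the middle of the promoter ranking and low in the enhancer ranking. The largest lean belonged to KUUAE0051.rev, whose promoter log2 RNA/DNA was 1.16 and 0.96 in replicates 1 and 2 and whose enhancer value was -0.26 and -0.27. It ranked above the median as a promoter and far below it as an enhancer, with ranks of 63.8 and 62.7 against 7.38 and 9.54. The replicates did not overlap, and its lean was 54.8 points (SE 1.29, limma adjusted p = 0.00974).

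KSUAT0106.rev followed with promoter values of 1.37 and 0.98 and enhancer values of -0.36 and -0.06. Its lean of 50.7 points is less precise, with an SE of 8.94, because the enhancer ranks of its replicates were 3.77 and 25.1. Only 52 and 70 enhancer RNA reads stand behind them. KUUAE0096.rev had promoter values of 0.44 and 0.34 and enhancer values of -0.59 and -0.56, close to the bottom of the enhancer ranking in both replicates (1.80 and 2.00), and a lean of 47.7 points (SE 0.86).

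The other 7 of the 10 strongest promoter leans were all fwd elements. 54347.fwd had promoter values of 0.58 and 0.52 and enhancer values of -0.17 and -0.20, a lean of 39.6 points. KSUAT0014.fwd and KUUAT0017.fwd leaned by 36.4 and 36.3 points. They reach this from different levels: KSUAT0014.fwd stood near the median as a promoter (0.52 and 0.42), whereas KUUAT0017.fwd was a clear promoter (1.74 and 1.64) with enhancer values near 0 (-0.02 and 0.13). KSUAE0002.fwd, KUUAE0114.fwd, KUUAT0028.fwd and KNGAE0027.fwd completed the list, with leans of 33.8, 33.3, 32.3 and 32.0 points. KNGAE0027.fwd was a weak element in both read-outs, at -0.05 and 0.12 as a promoter and -0.29 and -0.37 as an enhancer. Its call was also lost on median-centred log2 values and without either enhancer replicate.

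Enhancer-leaning elements at the far end were all in the rev orientation. KUUUT0102_G280A.rev, an element with a G-to-A substitution at the position its name gives, leaned furthest. Its promoter log2 RNA/DNA was -1.31 and -1.46, at the bottom of the promoter ranking (0.75 and 0.30), and its enhancer value was 0.41 and 0.58, above the median (55.6 and 62.8). The lean was -58.7 points (SE 3.04, limma adjusted p = 0.0104), resting on 87 and 92 promoter RNA reads.

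KNGAE0080.rev had promoter values of -0.99 and -1.11 and enhancer values of 0.28 and 0.10, a lean of -44.1 points. 54588.rev had promoter values of -0.14 and -0.40 and enhancer values of 0.81 and 0.42. Its replicates spread widely, with an SE of 6.49 on a lean of -40.8 points and 76 to 105 RNA reads per library. The call on 54588.rev was lost without any of the 4 promoter or enhancer replicates.

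KUUAE0038.rev and KNGUT0031.rev leaned by -40.6 and -40.4 points from deep counts of at least 1862 promoter and 930 enhancer RNA reads. KUUUT0082.rev was the strongest enhancer of the list, with enhancer values of 0.96 and 0.94 and promoter values of -0.02 and -0.11, a lean of -40.2 points. In each of these elements both enhancer replicates ranked above both promoter replicates. KSUAT0138.rev, KUUAT0111.rev, KNGAE0132.rev and KNGUT0071.rev leaned by -39.3, -39.1, -39.0 and -39.0 points, each with promoter values between -0.87 and -0.49 and enhancer values between 0.13 and 0.26.

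**Figure D2:**
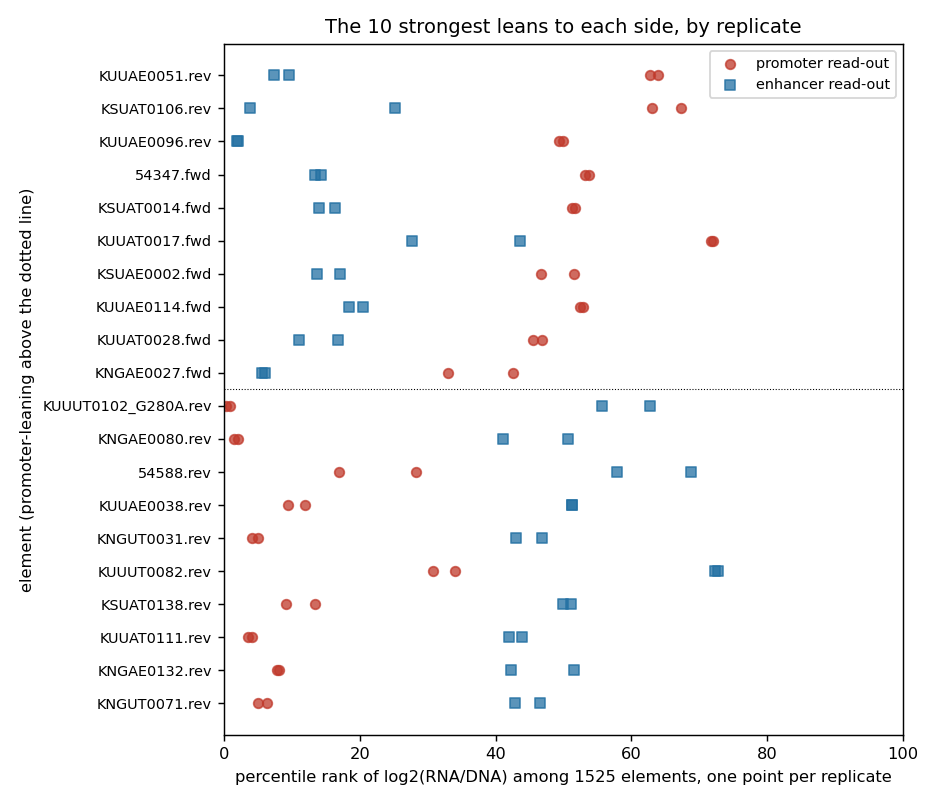
Percentile rank among 1525 elements (horizontal axis, 0 to 100) of the 10 elements with the strongest promoter lean (above the dotted line) and the 10 with the strongest enhancer lean (below it), with circles for the 2 promoter replicates and squares for the 2 enhancer replicates. In none of the 20 elements do the read-outs overlap, and the enhancer replicates of KSUAT0106.rev, at 3.77 and 25.1, lie furthest apart.

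The largest leans did not mean that an element was among the strongest in either read-out. Among elements without a substitution, 9 of the 10 that stood highest in both belonged to the KSSAT and KSUAT name classes (the leading letters of the element name, whose meaning the labels do not give). KSSAT0024.rev had promoter log2 values of 5.43 and 5.30 and enhancer values of 5.04 and 4.88, ranking 99.7 in all 4. KSSAT0004.rev had promoter values of 5.74 and 5.59 and enhancer values of 4.90 and 4.90. RSV.fwd, KSSAT0040.fwd and KSUAT0023.rev followed among unsubstituted elements, with mean promoter values of 4.85, 5.22 and 4.45 and mean enhancer values of 3.24, 3.11 and 3.05. KSSAT0006.fwd had the highest mean enhancer value of all 1525 elements, 5.23 in both replicates, with promoter values of 4.44 and 4.23.

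At the other end, KNGAT0026.rev had promoter values of -2.02 and -1.20 and enhancer values of -1.15 and -1.04. KNGAT0113.fwd, KNGAT0088.rev, KNGAT0094.fwd and 54128.fwd were the other 4 unsubstituted elements lowest in both. The RNA counts of these 5 elements were low, between 8 and 140 reads per library, and the promoter replicates of KNGAT0113.fwd were almost a log2 unit apart (-2.09 and -1.13). Leans are not given for the elements highest or lowest in both, because the ends of a ranking leave no room for one.

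The authors' own calls seldom opposed each other. In the authors' deposited tables, at their adjusted p under 0.05, 755 elements were higher in both read-outs and 136 lower in both. By the authors' calls, 7 elements (0.459%) were higher in the promoter and lower in the enhancer table, 5 of them fwd. The reverse was recorded for 19 elements (1.25%), 16 of them rev and 2 substituted. KUUAE0051.rev, KUUAE0096.rev, KSUAT0014.fwd, KSUAE0002.fwd, KUUAE0114.fwd and KUUAT0028.fwd from the promoter-leaning list were 6 of the 7. In the authors' deposited tables KUUAE0051.rev had a log2 fold change of 1.06 as a promoter and -0.26 as an enhancer, and KUUAE0038.rev from the opposite group had -0.55 and 0.27.

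Name classes differed mainly in activity. The median KSSAT element had promoter log2 values of 3.23 and 3.11 and enhancer values of 1.48 and 1.44, and the median KSUAT element 2.78 and 2.58 against 1.12 and 1.07. The 3 classes that begin with KNG lay lowest, with replicate medians from -0.38 to -0.26 as promoters and from -0.15 to -0.07 as enhancers. KUUAE and KUUUT had medians of 0.73 to 0.99 as promoters and 0.45 to 0.60 as enhancers. KSUUT lay close to the median of the collection in both, and KUUAT had promoter medians of 0.23 and 0.24 and enhancer medians of 0.17 and 0.13.

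By rank, KSSAT and KSUAT elements stood higher as promoters. Among 128 KSSAT elements, 87 were called promoter-leaning and 5 enhancer-leaning, with a median lean of 6.67 points (6.75 and 6.95 by replicate). Among 119 KSUAT elements, 65 were called promoter-leaning and 7 enhancer-leaning, with a median of 6.92 points. Both shares lie above the 23% of all elements called promoter-leaning, but they depend on which elements share the ranking. With the 208 substituted elements taken out of the ranks, 22 KSSAT elements were called promoter-leaning and 9 enhancer-leaning at a median lean of 2.22 points. For KSUAT the same step left 31 and 10 calls and a median of 2.05 points, against 185 promoter-leaning (14%) and 199 enhancer-leaning (15.1%) calls among the 1317 elements ranked. Log2 values were also standardised, by the median and SD of each replicate, and there the tail of strong promoters counts in full. On these values 104 KSSAT elements were called promoter-leaning and 10 enhancer-leaning.

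The substituted elements took the opposite side of the ranking. Among the 208, 119 (57.2%) were called enhancer-leaning and 16 promoter-leaning, with a median lean of -8.13 points. On median-centred log2 values this direction was lost, with 71 promoter-leaning and 61 enhancer-leaning calls and a median of 0.06, while on standardised values it held with 24 and 132. They were active elements, with median enhancer values of 1.91 and 1.77 and median promoter values of 2.07 and 1.91. The substituted elements come from 42 loci, most of them of the KUUAE (83 elements) and KUUUT (49) classes so they are not independent of each other. In these classes 52 of the 83 and 31 of the 49 substituted elements were called enhancer-leaning. Unsubstituted elements of these classes, with 40 of 144 KUUAE and 27 of 130 KUUUT elements called enhancer-leaning, come mostly from other loci. Classes of substituted elements differed in direction. Enhancer-leaning calls were made for 11 of 11 KUUAT, 15 of 19 KSUUT and 5 of 7 CMV elements. The same held for 3 of 5 KSSUT and 2 of 4 KSUAE elements. Substituted KSUAT had 6 promoter-leaning and 0 enhancer-leaning calls among 11 elements. KSSAT had 2 and 0 among 7, GP 2 and 0 among 5 and KNGAT 1 and 0 among 7. For the 24 substituted elements whose unsubstituted version in the same orientation was measured, the median lean was -8.33 points with the substitution and -9.56 points without it. Of these 24, 12 were called enhancer-leaning, and 13 had an unsubstituted version that was so called. Several substitutions share the same unsubstituted element, which was counted again for each. Neither the 13 nor the median of -9.56 points thus describes separate unsubstituted elements.

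Of the remaining classes, KSUUT and KUUAT stayed near the overall shares of calls, and the KNG classes and the numbered elements were called less often to either side. KSUUT had 25 promoter-leaning and 28 enhancer-leaning calls among 117 elements, KUUAT 37 and 24 among 146, and elements named by digits alone 6 and 5 among 53. KNGAE had 20 and 25 calls among 162 elements, KNGAT 13 and 16 among 147 and KNGUT 17 and 17 among 156. The near equality of both sides in the KNG classes was found on ranks and not on log2 values. On standardised log2 values KNGAE had 5 promoter-leaning and 59 enhancer-leaning calls, KNGAT 5 and 39 and KNGUT 6 and 42. On median-centred log2 values the counts were 0 and 101, 1 and 75, and 1 and 92.

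**Figure D3:**
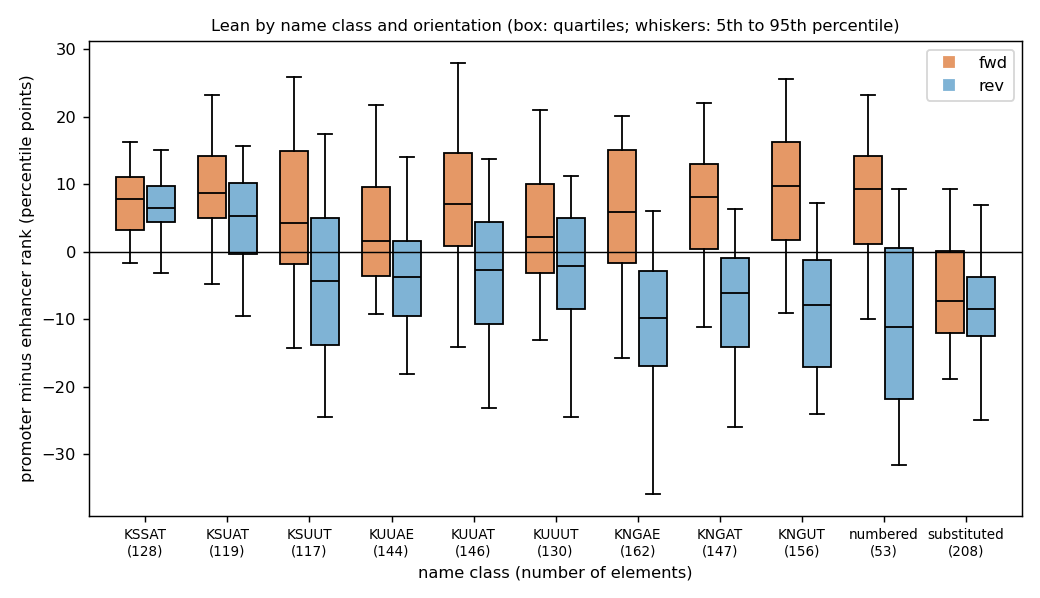
Lean in percentile points (vertical axis; promoter minus enhancer rank) by name class (horizontal axis, number of elements in parentheses) for fwd and rev elements of set 1; boxes show quartiles with the median line and whiskers the 5th to 95th percentile over elements. The KSSAT boxes lie above 0 in both orientations and the substituted boxes mostly below it. In KSUUT, KUUAE, KUUAT, KUUUT, the KNG classes and the numbered elements, the fwd median lies above 0 and the rev median below it.

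Leans also split by orientation. Of the promoter-leaning elements 226 were fwd and 125 rev, and of the enhancer-leaning elements 103 were fwd and 214 rev. Among elements without a substitution, 216 of 659 fwd elements were promoter-leaning and 49 enhancer-leaning, against 119 and 149 of 658 rev elements. In the KNG classes few calls by rank crossed this split. Of 233 fwd KNG elements, 49 were promoter-leaning and 3 enhancer-leaning, and of 232 rev elements 1 was promoter-leaning and 55 enhancer-leaning. Without substituted elements in the ranks these counts were 40 and 3 for fwd and 0 and 44 for rev. On standardised log2 values the rev side remained (0 and 124) and the fwd side did not, with 16 calls each way. On median-centred log2 values the fwd side turned round, with 2 promoter-leaning and 70 enhancer-leaning calls, against 0 and 198 for rev.

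KNG elements were weak, and the split came from small differences on the log2 scale. Median promoter values of fwd KNG elements were -0.23 and -0.15 in the 2 replicates, and those of rev elements were -0.44 and -0.54. The medians of the enhancer values were -0.10 and -0.18 for fwd and -0.05 and -0.09 for rev. Rev elements thus lay lower than fwd elements as promoters in both replicates and slightly higher as enhancers.

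To test orientation itself, fwd and rev elements of the same locus were compared at the 637 loci that had both without a substitution. In the promoter read-out 426 loci (66.9%) were called at a limma adjusted p under 0.05, with fwd higher than rev at 309 (48.5%) and lower at 117 (18.4%). In the enhancer read-out 123 loci (19.3%) were called, with fwd higher at 38 (5.97%) and lower at 85 (13.3%). The difference between the read-outs was called at 314 loci (49.3%), with fwd minus rev higher in the promoter read-out at 253 (39.7%) and lower at 61 (9.58%). The median fwd minus rev difference was 0.25 on the log2 scale in the promoter read-out (0.20 and 0.33 by replicate) and -0.06 in the enhancer read-out (-0.07 and -0.05). The enhancer read-out gave 65 calls without eaBC replicate 1 and 78 without eaBC replicate 2. Its libraries were shallower, and how far this bears on the counts of calls was not tested. Its log2 values were also less spread, and more enhancer loci were called on values divided by the SD, as given further below. Without paBC replicate 2 the calls on the difference between read-outs fell to 204.

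Most classes followed this pattern and the strongest did not. Fwd exceeded rev as a promoter at 46 of 79 KNGAE, 38 of 68 KNGAT and 44 of 75 KNGUT loci, against 5, 4 and 4 with rev higher. At KSSAT loci fwd was higher at 19 and rev at 28 of 63, with a median difference of -0.18, and at KSUAT loci fwd was higher at 22 and rev at 26 of 59, with a median of -0.08. Differences in these classes were large in either direction, with a median size of 0.60 for KSSAT and 0.88 for KSUAT against 0.39 over all loci.

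The largest promoter differences came from strong elements. KSUAT0092 had fwd promoter values of 5.36 and 5.27 and rev values of 1.62 and 1.16, a difference of 3.93 on the log2 scale (SE 0.14, limma adjusted p = 1.85e-08). Its enhancer values also favoured fwd, at 2.73 and 2.84 against 1.09 and 1.30. KSUAT0020 and KSSAT0010 ran the other way, with promoter differences of -2.52 and -2.36. RSV had a promoter difference of 2.27 and an enhancer difference of 0.54.

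In the enhancer read-out, where 123 loci were called, the largest differences were far above the median size of 0.15 over all loci. KSSAT0006 had fwd enhancer values of 5.23 and 5.23 and rev values of 1.75 and 1.59, a difference of 3.56 (SE 0.11, limma adjusted p = 1.58e-09). Its promoter difference was only 0.98. KSSAT0004 was the mirror case, with fwd enhancer values of 1.48 and 1.34 and rev values of 4.90 and 4.90, a difference of -3.49, and a promoter difference of -2.10. KSSAT0024, KSUAT0040, KSUAT0083 and KSSAT0079 followed, with enhancer differences of -2.81, -2.20, -1.95 and 1.92.

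Opposite orientation preferences in the 2 read-outs were called at 18 loci, 15 with fwd higher as a promoter and rev higher as an enhancer and 3 the other way; at 72 loci both preferences were called and ran the same way. KSSAT0014 showed the largest reversal. Its fwd element was the better promoter, at 5.06 and 4.90 against 3.08 and 2.80 for rev. Its rev element was the better enhancer, at 3.67 and 3.64 against 2.20 and 2.06 for fwd. The difference between the read-outs was 3.56 (SE 0.16, limma adjusted p = 1.87e-07). KSUUT0027 had the opposite arrangement, with rev higher as a promoter by 0.69 (fwd minus rev -0.69) and fwd higher as an enhancer by 1.35.

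KUUAE0051, the locus of the strongest promoter lean, was equally active as a promoter in both orientations and not as an enhancer. Its promoter values were 1.16 and 0.98 for fwd and 1.16 and 0.96 for rev, a difference of 0.01 (SE 0.10). Its enhancer values were 0.94 and 0.95 for fwd and -0.26 and -0.27 for rev, a difference of 1.21 (limma adjusted p = 7.44e-06). KSUAT0142 had an orientation difference of -1.67 as a promoter and 0.02 as an enhancer, and KUUAE0023 one of 1.77 and -0.26.

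**Figure D4:**
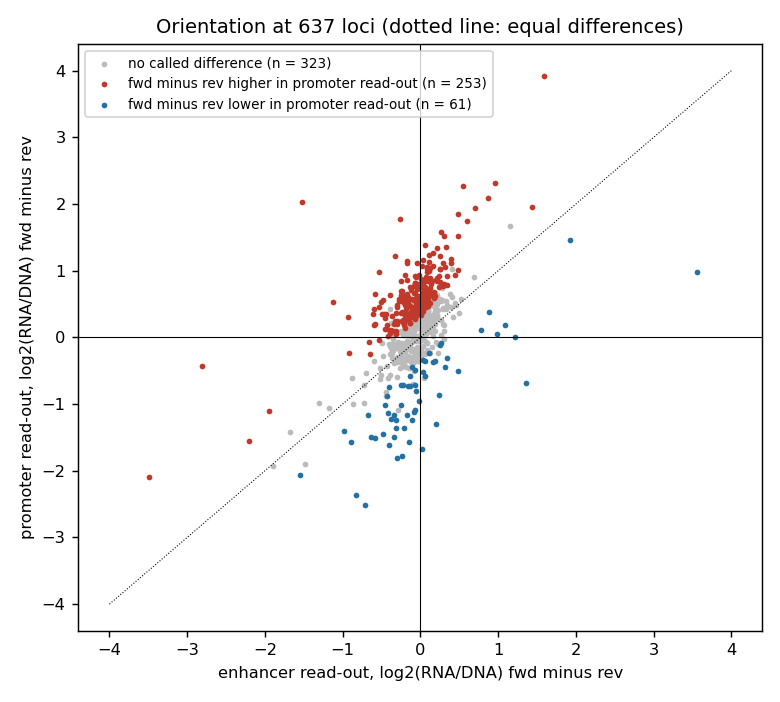
Difference between fwd and rev elements of the same locus in log2 RNA/DNA, in the enhancer read-out (horizontal axis) and the promoter read-out (vertical axis), for 637 loci; the dotted line marks equal differences. The 253 loci whose difference was called higher in the promoter read-out spread upward along the vertical axis while most enhancer differences stay near 0. KSSAT0014 lies alone in the upper left at -1.53 and 2.04.

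Leans of the fwd and rev elements of a locus were only loosely related. Both were promoter-leaning at 71 loci and both enhancer-leaning at 27, while fwd was promoter-leaning and rev enhancer-leaning at 25 and the reverse held at 6. Of the 71, 28 were KSSAT and 18 KSUAT loci. With substituted elements out of the ranks, both orientations were promoter-leaning at 17 loci, of which 2 were KSSAT and 4 KSUAT, and both enhancer-leaning at 33, of which 12 were KUUAE and 9 KUUUT. Activity itself was shared more closely, with r = 0.905 between fwd and rev log2 values over 637 loci in the promoter read-out and 0.853 in the enhancer read-out.

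Substitutions could be compared with the unsubstituted element in the same orientation for 24 substituted elements at 7 loci. At a limma adjusted p under 0.05, 14 (58.3%) differed from the unsubstituted element in the promoter read-out, 13 (54.2%) being lower and 1 (4.17%) higher. In the enhancer read-out 16 (66.7%) differed, 12 (50%) being lower and 4 (16.7%) higher. Of the 24, 10 were lower in both, 0 were higher in both and 1 moved in opposite directions. The change differed between the read-outs for 8 of the 24 (33.3%), the promoter change minus the enhancer change being below 0 for 7 (29.2%) and above 0 for 1 (4.17%). Without eaBC replicate 1 and replicate 2 the enhancer calls numbered 10 and 9 in place of 16. The count of 8 fell to 3 without eaBC replicate 1 and also without eaBC replicate 2, and on standardised log2 values it was 13, with 7 and 6 in the 2 directions. Substitutions of a locus are compared with the same unsubstituted libraries and are not independent. The limma fit gave all 24 pairs the same SE, 0.098 in each read-out and 0.138 for the difference. The p-values of substitutions thus rest on a spread pooled over the pairs and do not measure that of a single element.

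KSUAT0022 supplied 7 of the 24, all of them lower in both read-outs. The unsubstituted fwd element had promoter values of 3.68 and 3.57 and enhancer values of 1.65 and 1.65. With the substitution A212G the fwd element had promoter values of 1.97 and 1.91 and enhancer values of 0.87 and 0.89, which is a change of -1.68 as a promoter and -0.77 as an enhancer. Over the 7 elements the promoter change ran from -1.68 to -0.54. In the rev orientation A209C changed the promoter value by -0.85 and the enhancer value by -0.88, with no call on the difference between them.

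KUUAE0129_A73G.fwd lost most enhancer activity. The unsubstituted element had promoter values of 2.46 and 2.26 and enhancer values of 2.26 and 2.25, and the substituted one 0.76 and 0.64 against 0.14 and 0.19. The changes were -1.66 as a promoter and -2.08 as an enhancer, and the lean went from -11.5 to 11.5 points. The promoter change minus the enhancer change was 0.42 (limma adjusted p = 0.0119), the 1 call above 0. A206G, T213C and TG174GT at the same locus changed either read-out by values between -0.27 and 0.26 on the log2 scale.

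At KUUAE0051 the substitution T223A altered the enhancer read-out of the strongest promoter-leaning element. The rev element with T223A had enhancer values of 0.53 and 0.30 against -0.26 and -0.27 without it, a change of 0.68 (limma adjusted p = 1.49e-09), while the promoter values were 1.20 and 0.99 against 1.16 and 0.96. Its lean was 7.18 points, not called, against 54.8. KUUAE0071_T12C.fwd was the element that moved in opposite directions, by -0.81 as a promoter (1.06 and 1.06 against 1.97 and 1.76) and by 0.36 as an enhancer (2.98 and 2.89 against 2.63 and 2.51).

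The lean was measured again in the second set of libraries, in which the plasmids carried pMYC, pGAPDH or pAPOBEC3F as the minimal promoter and were read from other RNA and DNA libraries. These were shallower for pMYC, with 409486 and 434897 enhancer RNA reads. No substituted element was among the 1133 elements tested in both pMYC sets, over which ranks were taken anew. Set 1 called 341 of them (30.1%), 167 promoter-leaning (14.7%) and 174 enhancer-leaning (15.4%).

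Direction mostly held. In set 2 with pMYC, 136 of the 167 promoter-leaning elements (81.4%) leaned to the promoter side, against 48.3% of all 1133. Of the 174 enhancer-leaning elements, 148 (85.1%) leaned to the enhancer side, against 51.7% of all. Median leans shrank from 13.7 to 10.2 points for the promoter-leaning elements and from -14.5 to -7.77 points for the enhancer-leaning elements. Over all 1133 elements the leans of both sets correlated with r = 0.426, a description across elements that share loci.

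Set 2 by itself called 9 elements (0.794%), 6 (0.53%) promoter-leaning and 3 (0.265%) enhancer-leaning at a limma adjusted p under 0.05, with 248 at an unadjusted p under 0.05. All 9 had the same sign in set 1, and 3 of them were also called there. Some of their set 1 leans were smaller than the SE, such as -2.16 points (SE 3.44) for KUUUT0045.rev and -6.80 (SE 8.83) for KNGAT0110.rev. With the replicate block, and also without any of the 4 replicates of set 2, no element was called. KUUAE0051.rev leaned by 41.0 points in set 2 and by 60.6 in set 1 among the same elements. KSUAT0106.rev leaned by 46.3 and 55.0 points, and KUUAT0017.fwd by 46.2 and 36.7. KUUAE0114.fwd leaned less in set 2, by 9.71 against 37.4 points.

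The 7 elements of the enhancer-leaning list that were tested in both sets kept their sign, at sizes from near those of set 1 to far below them. KNGAE0132.rev leaned by -36.1 points in set 2 and -45.5 in set 1, and KNGUT0071.rev and KUUAT0111.rev by -27.8 and -25.2 against -45.4 for both. KNGAE0080.rev leaned by -20.9 against -50.0 points. KUUAE0038.rev leaned by -10.2 against -46.9 points, KNGUT0031.rev by -7.50 against -46.7, and 54588.rev by -6.44 against -46.6. The difference between the sets was called by limma for KUUAE0038.rev (adjusted p = 0.0123), KNGUT0031.rev (0.0486) and KUUAE0114.fwd (0.0255) and not for 54588.rev (0.172).

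A difference of the lean between the sets was called for 17 elements (1.5%), 8 (0.706%) leaning more to the promoter side in set 1 and 9 (0.794%) less, and for 0 with the replicate block. That count was 2 and 6 without promoter replicate 1 and 2 of set 2, and 125 and 117 without enhancer replicate 1 and 2 of set 2. KUUAE0096.rev was among the 8, at 53.5 points in set 1 and -23.5 in set 2. KUUUT0045.rev and KUUUT0051.rev, which set 2 called by itself, were also among the 17.

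With the other minimal promoters of set 2 the directions were similar, but the called elements were defined differently. Here the calls were those of the ranking of the 1525 elements, which includes the substituted ones. For pMYC they came from the new ranking without substituted elements, so the counts and percentages are not directly comparable. With pGAPDH 268 of 328 promoter-leaning elements (81.7%) and 161 of 192 enhancer-leaning elements (83.9%) kept their side, where 52.5% and 47.3% of all elements fell on these sides. With pAPOBEC3F the counts were 250 of 310 (80.6%) and 128 of 180 (71.1%), against 49.9% and 50.0% of all. The 3 minimal promoters of set 2 share their electroporations and libraries and are not separate repeats.

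Class medians in set 2 were small for the active classes and partly repeated the orientation split. Among the elements common to both sets the median KSSAT lean was 2.52 points in set 1 and 2.07 in set 2, and the median KSUAT lean 1.81 and 2.87. The rev KNG elements had medians of -8.76 and -6.38 points. The fwd KNG elements had medians of 8.56 points in set 1 and 0.09 in set 2, so their promoter lean was not seen again.

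At 497 loci with both orientations in set 2, a comparison added after the set 1 results were seen, fwd was higher as a promoter at 137 (27.6%) and lower at 71 (14.3%). As an enhancer fwd was higher at 23 (4.63%) and lower at 42 (8.45%). The difference between the read-outs was called at 94 loci (18.9%), 73 (14.7%) towards fwd in the promoter read-out and 21 (4.23%) away from it. The median fwd minus rev difference was 0.12 as a promoter and -0.05 as an enhancer. KSSAT and KSUAT loci again had negative promoter medians, -0.11 and -0.12.

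**Figure D5:**
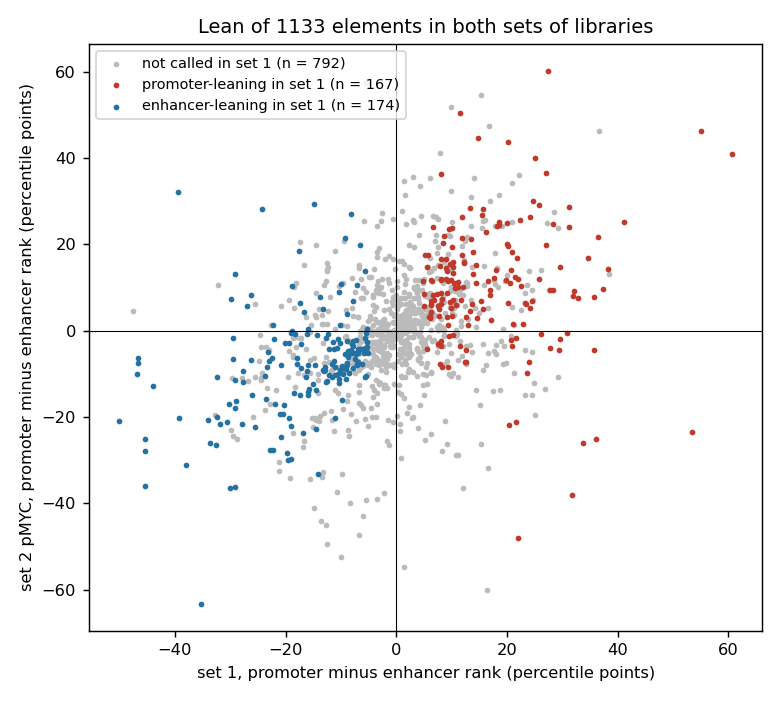
Lean in set 1 (horizontal axis) and in set 2 with pMYC (vertical axis), in percentile points among the 1133 elements tested in both; colours give the calls in set 1. Of the 167 promoter-leaning elements 136 lie above 0 in set 2, and of the 174 enhancer-leaning elements 148 lie below it.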

How the data were processed

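The submitters' processing notes name fastp, limma, edgeR and the genome build hg38, with no versions. Per the file headers and values, the authors deposited for each read-out a signal per element in 2 DNA and 2 RNA libraries, a log2 fold change and an adjusted p-value. Every deposited signal was a whole multiple, within 0.02, of its column's step, and values are given in such steps as reads. How the authors filtered and scaled them is not given in the sources used here. Here, log2(RNA/DNA) with 0.5 reads added was ranked among the 1525 elements per replicate and tested with limma 3.58.1 in R 4.3.3 (lmFit, eBayes, Benjamini-Hochberg over all elements, two-sided), without a replicate block. Orientation and substitutions were tested on log2(RNA/DNA), with both read-outs in 1 fit. The scripts were tested on simulated data.

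Per the labels' protocols every replicate gave RNA and DNA libraries of both barcodes, so replicate numbers pair the samples. The rank deviations of paired replicates correlated with r = 0.0361 across the 1525 elements. Elements and lists were chosen with earlier results of these data known. Named are the 10 called elements leaning most to each side, those highest (10) and lowest (5) in both read-outs, the extreme element of each class, the authors' opposite calls, the largest orientation, substitution and set differences, 1 per locus, of which a part is given. Alternatives covered the scale, added reads, DNA filter, ranked set, variance trend, thresholds, block and omission of each replicate. The index libraries made before electroporation were not used here.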

Additional observations from a re-analysis of the deposited data

Results flagged for a closer look

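Differences between groups under the same contrast were flagged for orientation, substitution and library set. The fwd minus rev difference was called higher in the promoter read-out at 253 of 637 loci and called lower at 61. The promoter change with a substitution minus the enhancer change was called above 0 for 1 of 24 elements and below 0 for 7. The other elements were not called, and the median over all 24 was 0.005.

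The lean differed between set 1 and set 2 with pMYC for 17 of 1133 elements at a limma adjusted p under 0.05 (1.5%), 8 leaning more to the promoter in set 1 and 9 less. With the replicate block none of the 17 was called, with 169 elements at an unadjusted p under 0.05.

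KUUAE0096.rev leaned by 53.5 points in set 1 and -23.5 in set 2, a difference of 77.0 points (SE 6.32); its enhancer values were -0.59 and -0.56 in set 1 and 0.26 and 0.13 in set 2. KNGAT0098.fwd differed by 70.1 points, with 4 and 22 enhancer DNA reads in set 2. KNGUT0005.fwd differed by 69.9 points, with 28 and 26 such reads.

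In the other direction KUUAT0130.fwd leaned by -39.4 points in set 1 and 32.0 in set 2, a difference of -71.4 points, with 16 and 19 enhancer RNA reads in set 2. KUUUT0031.rev differed by -62.7 points, with 34 and 27 such reads, and KSUUT0004.rev by -42.2 points, with 105 and 116.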

How the results depend on the processing

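Lean calls numbered 668 of 1525. They numbered 0 with the replicate block, 384 without substituted elements in the ranks (of 1317), 1003 on median-centred log2 values, 21 at an adjusted p under 0.01 and 413 with a lean of at least 10 points. Leaving out a replicate gave 0 to 624 calls, the 0 coming from each promoter replicate.

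Orientation calls in the enhancer read-out numbered 123, with 62 at an adjusted p under 0.01, 211 on values divided by the SD, and 65 to 114 without a replicate. Those on the difference between read-outs numbered 314, with 201 at an adjusted p under 0.01 and 204 to 258 without a replicate. Substitution calls as an enhancer ranged from 9 to 16 without a replicate. Substitution differences numbered 8, with 5 at an adjusted p under 0.01, 13 on values divided by the SD and 3 to 11 without a replicate. The replicate block changed no orientation or substitution count by over 1.5 times.

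Set 2 lean calls numbered 9, with 0 with the replicate block, 102 on standardised values, 30 with at least 100 DNA reads, 0 at an adjusted p under 0.01 and 0 without any replicate. Differences between sets numbered 17, with 0 with the block, 9 on standardised values, 1 at an adjusted p under 0.01 and 2 to 125 without a replicate. The cause of these changes was not tested. A count test on recovered reads was not run. Enhancer RNA reads for pMYC numbered 409486 and 434897 in set 2 and 1260027 and 1475068 in set 1. The set 2 libraries also held the reads for pGAPDH and pAPOBEC3F.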

Other observations

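Elements of the CMV584 locus, which occur here only with a substitution and were picked out after their values were seen, had the highest promoter values of the collection and a wide gap between orientations. CMV584_GG543TT.fwd had promoter log2 values of 6.98 and 7.12 and enhancer values of 5.07 and 4.77, and CMV584_CC526AA.fwd 6.28 and 6.53 against 4.98 and 4.72. The 5 rev elements of the locus had enhancer values from 4.63 to 5.32 and promoter values from 1.30 to 2.47. CMV584_GG546TT.rev, for example, had promoter values of 2.47 and 2.44 and enhancer values of 5.32 and 5.07, and a lean of -18.4 points. CMV584_GG559TT.rev had promoter values of 1.30 and 1.39 and enhancer values of 4.77 and 4.63, and a lean of -31.7 points. All 5 rev elements were called enhancer-leaning by limma at an adjusted p under 0.05 and the fwd elements stood at the top of both rankings, where no lean can appear. The fwd and rev elements carry different substitutions, so orientation alone was not compared.

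RSV, present without a substitution, was alike in direction. RSV.rev had promoter values of 2.69 and 2.49 and enhancer values of 2.80 and 2.60, a lean of -12.6 points, while RSV.fwd had 4.83 and 4.87 against 3.32 and 3.17. RSV.fwd ranked 98.9 as a promoter and 98.4 as an enhancer, where ranks leave no room for a lean. On median-centred log2 values it was called promoter-leaning by 1.44, and on standardised log2 values it was not called, at -0.12.

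Calls of a lean were more frequent at higher ranks. Of the 269 elements with a mean rank under 20, 21.2% were called, and of the 326 with a mean rank of at least 80, 72.7%. The leans themselves were not larger there. Their SD over elements was 12.2 points in the lower group and 10.0 in the higher, and largest, 17.5, at mean ranks from 20 to 40.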
